A study of Mus musculus with 11 samples.

Results

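Serotonin receptor genes were compared between motor neurons of the phrenic nerve and other motor neurons of the mouse embryo. The 9 genes named were Htr1a, Htr1b, Htr1d, Htr2a, Htr2c, Htr3a, Htr4, Htr5a and Htr7. A gene was measured through the probe sets whose annotation gives its symbol alone, and 8 of the 9 had such a probe set, 16 probe sets in all among 45037 tested. Where a gene had several, the one with the highest mean over all arrays stands for it, and Htr2a was not analysed here. The table as a whole covers 18193 genes in this way. Levels of different probe sets are not compared with each other, because probes differ in how strongly they bind.

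RNA came from C57/BL6 embryos carrying Hb9::GFP, a reporter in which regulatory sequence of the motor neuron gene Mnx1 (Hb9) drives green fluorescent protein. In trunk explants a rhodamine dextran entered axons through the phrenic nerve, which supplies the diaphragm, or the radial nerve, which supplies the forelimb, and neurons were then sorted by fluorescence. Phrenic neurons made up 4 arrays, neurons of the lateral motor column filled through the radial nerve (LMC radial) made up 3, and cells from segments C3-C5 that showed only the reporter (C3-C5 GFP-only) made up 4. The labels give no exact embryonic age, no number of embryos per sample and no origin of the replicates. The p-values therefore cover the spread from array to array, which may be technical. All 3 groups share the reporter and the sort, and no group received a drug or carried a mutation per the labels. The C3-C5 GFP-only cells are defined by the lack of dextran, so the nerves they supply are not known. The LMC radial titles name no segment, so segment and neuron type cannot be told apart in comparisons with them.

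Serotonin released by neurons of the brainstem raphe reaches spinal motor neurons, including those that drive breathing, and changes how readily they fire. Most of its receptors couple to G proteins: the Htr1 and Htr5 families to Gi/o, which lowers cyclic AMP, the Htr2 family to Gq, which acts through phospholipase C, and Htr4, Htr6 and Htr7 to Gs, which raises cyclic AMP. Htr3 receptors are ion channels opened by serotonin.

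Values are log2 levels from RMA, a method that corrects background, normalizes arrays by quantiles and combines the probes of a set. Array medians lay between 4.48 and 4.63, and a log2 level of 5 is used here as a mark for values close to them. The lower quartile of the values lay between 3.18 and 3.20 in 4 arrays, replicates 2 and 3 of the phrenic and of the C3-C5 GFP-only groups, and between 3.26 and 3.38 in the other 7. All LMC radial arrays belonged to these 7. Of 8 motor neuron markers none had a mean below 5 in phrenic neurons or in C3-C5 GFP-only cells, and 3 did in LMC radial neurons (Chat, Slc5a7 and Lhx3). Lhx3 averaged 5.11 ± 1.24 in phrenic neurons, 3.85 ± 0.20 in LMC radial neurons and 10.01 ± 0.15 in C3-C5 GFP-only cells (SD). Slc5a7 averaged 5.07 ± 0.84 in phrenic neurons (SD), with the lowest array at 3.87. Mnx1 averaged 9.01 ± 0.09 in phrenic neurons, 8.14 ± 0.07 in LMC radial neurons and 9.07 ± 0.16 in C3-C5 GFP-only cells (SD, n = 4, 3 and 4).

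Phrenic neurons differed from LMC radial neurons in 4 of the 8 receptor genes (limma, adjusted p under 0.05), where 6.61% of all probe sets were called. Htr1a was higher, as were 3.48% of all probe sets, and Htr2c, Htr5a and Htr7 were lower, as were 3.14%. Against C3-C5 GFP-only cells phrenic neurons differed in 1 of 8, with Htr1a higher and 1.96% of all probe sets called (0.973% higher, 0.986% lower). LMC radial neurons differed from C3-C5 GFP-only cells in 3 of 8, with Htr2c, Htr5a and Htr7 higher and 3.76% of all probe sets called (1.88% in each direction). All these shares are above those of the whole table, but the genes were chosen with results of these arrays known, and no test was made over the list. The median difference of the 8 genes was -0.27 for phrenic against LMC radial and 0.33 for LMC radial against C3-C5 GFP-only, beside -0.01 and 0.00 over all probe sets. Only 2 of the 8 representing probe sets, those of Htr1a and Htr7, reached a level of 5 in any array. The comparisons share arrays, so a gene that stands out in 1 type moves in a pair of them.

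**Figure D1:**
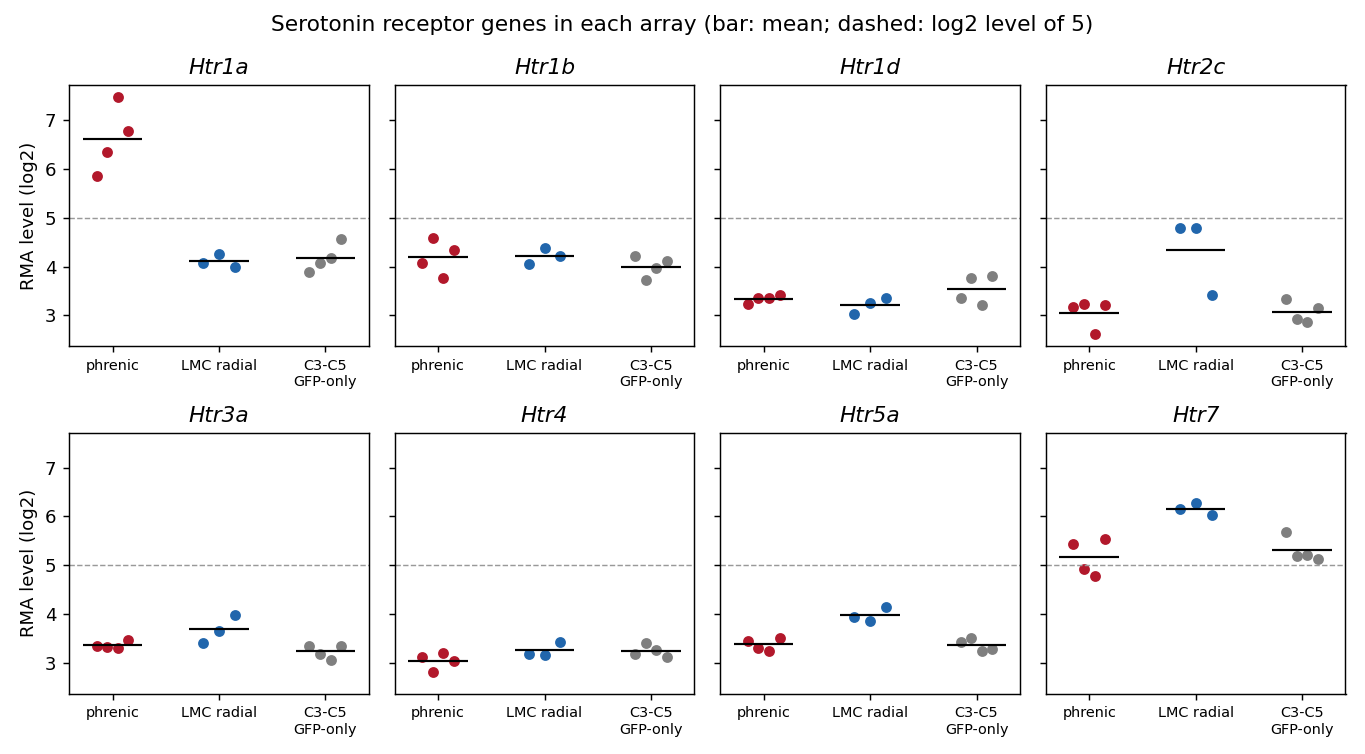
RMA log2 levels (vertical axis) of 8 serotonin receptor genes in each array, 1 panel per gene, with phrenic, LMC radial and C3-C5 GFP-only arrays from left to right, a bar at each mean and a dashed line at 5. All 4 phrenic arrays lie above the other arrays for Htr1a, and all 3 LMC radial arrays lie above the others for Htr7.

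**Figure D2:**
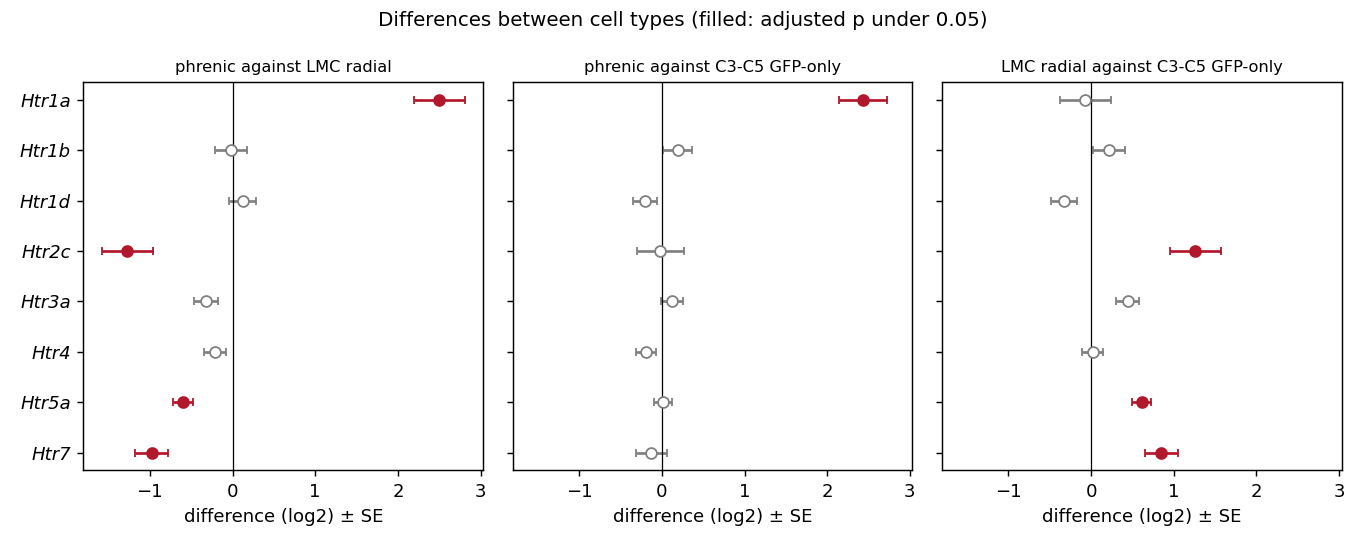
Differences between types on the log2 scale with their SE (horizontal axis) for the 8 genes in the 3 comparisons, with filled points where the adjusted p was under 0.05. Htr1a stands at 2.50 and 2.43 in both phrenic comparisons, and Htr2c, Htr5a and Htr7 are called in both comparisons that involve LMC radial neurons.

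Htr1a encodes a Gi/o-coupled receptor that reduces excitability in many neurons by opening potassium channels. Its log2 level in phrenic neurons was 5.86, 6.34, 7.47 and 6.77 in replicates 1 to 4. It was 4.07, 4.26 and 4.00 in LMC radial neurons and 3.89, 4.07, 4.18 and 4.56 in C3-C5 GFP-only cells. Every phrenic array was above 5 and every other array below it, so the phrenic levels did not overlap with either of the other types. The difference was 2.50 ± 0.31 against LMC radial neurons (SE, limma, adjusted p = 0.000893) and 2.43 ± 0.29 against C3-C5 GFP-only cells (adjusted p = 0.00145). Because the other means were near the array medians, the fold is given as a bound: Htr1a was at least 3.05-fold higher in phrenic neurons than in either type. Between LMC radial neurons and C3-C5 GFP-only cells the difference was -0.07, with a 95% confidence interval from -0.75 to 0.62.

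The phrenic arrays were the most variable for Htr1a, with an SD of 0.68 against 0.14 in LMC radial and 0.28 in C3-C5 GFP-only arrays. Htr1a stayed called in both phrenic comparisons whichever single array was left out, with a highest adjusted p of 0.00606 against LMC radial neurons and 0.00809 against C3-C5 GFP-only cells. Within the arrays of the higher lower quartile the phrenic minus C3-C5 GFP-only difference was 2.09 (adjusted p = 0.0874), and within the other 4 arrays it was 2.78 (adjusted p = 0.104), so neither passed with 2 arrays per type.

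The second Htr1a probe set, 1450219_at, did not show the phrenic increase. Its levels were 3.64, 3.22, 3.29 and 3.70 in phrenic neurons, 4.37, 4.01 and 4.15 in LMC radial neurons, and 3.82, 3.70, 3.54 and 3.70 in C3-C5 GFP-only cells. No array reached 5, and the phrenic mean was lower than the LMC radial mean by a log2 difference of -0.71 ± 0.15 (limma, adjusted p = 0.0171). Against C3-C5 GFP-only cells its difference was -0.22 (adjusted p = 0.573). The annotation ties this probe set to the RefSeq transcript of Htr1a and the other, 1438710_at, to another sequence. The higher Htr1a level therefore rests on 1 of 2 probe sets, and which part of the transcript each covers was not tested.

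**Figure D3:**
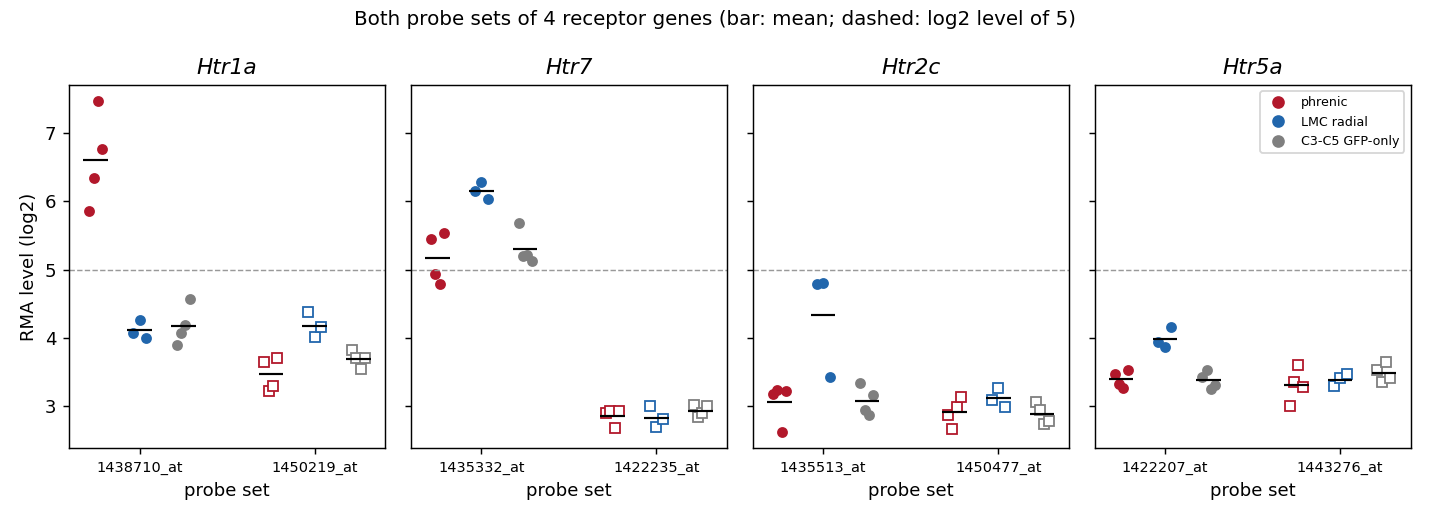
RMA log2 levels (vertical axis) of both probe sets of Htr1a, Htr7, Htr2c and Htr5a in each array, with circles for the set that represents the gene, squares for the other, colours for the types, bars at means and a dashed line at 5. The second probe set lies below 5 in every array for all 4 genes.

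Measures of RNA quality and of other cell types also varied between the arrays. The difference between the 3′ and 5′ probe sets of the Actb control was 1.05, 1.71, 2.15 and 1.96 in phrenic replicates 1 to 4, 1.05, 1.01 and 1.12 in LMC radial arrays, and 1.29, 1.98, 1.79 and 1.07 in C3-C5 GFP-only arrays. Every C3-C5 GFP-only array and LMC radial replicate 3 had a difference within the phrenic range, with Htr1a from 3.89 to 4.56. LMC radial replicates 1 and 2 lay below that range. Within the phrenic arrays Htr1a rose in the same order as the Actb difference, from 5.86 at 1.05 to 7.47 at 2.15. In LMC radial and C3-C5 GFP-only arrays the highest Htr1a levels, 4.26 and 4.56, stood at the lowest Actb differences, 1.01 and 1.07. The mean level of 11 mesenchyme and cartilage genes ranged from 5.62 to 7.52 in phrenic arrays, from 5.45 to 6.72 in LMC radial arrays and from 4.83 to 5.36 in C3-C5 GFP-only arrays. Of these genes 1 was called higher in phrenic neurons than in C3-C5 GFP-only cells, as was 1 of 5 glial markers. Over all probe sets 0.973% were called higher in that comparison. None of either list was called between phrenic and LMC radial neurons, where 6.61% of all probe sets were. Phrenic and LMC radial arrays overlapped in the mesenchyme and cartilage mean while their Htr1a levels did not. Every C3-C5 GFP-only array lay below every phrenic array in both. The summed level of 9 spinal interneuron markers ranged from 41.2 to 51.7 in phrenic arrays, from 37.2 to 43.4 in LMC radial arrays and from 38.8 to 41.8 in C3-C5 GFP-only arrays. Of these markers 5 had a mean below 5 in phrenic neurons, 7 in LMC radial neurons and 7 in C3-C5 GFP-only cells. Gad1, which makes the transmitter GABA, averaged 5.55 ± 1.46 in phrenic neurons, 3.93 ± 0.57 in LMC radial neurons and 3.90 ± 0.44 in C3-C5 GFP-only cells (SD). Lbx1, a factor of dorsal interneurons, averaged 8.42 ± 1.47, 7.28 ± 0.84 and 6.47 ± 0.41 in the same types (SD). Both were named after their values were seen. Gad2 was also highest in phrenic neurons (6.07, 4.87 and 4.86), but Slc32a1 was lowest there (4.60, 4.87 and 4.65). En1 and Sim1 were lower in phrenic neurons (2.60 and 3.24) than in LMC radial neurons (2.86 and 3.34). Slc17a6 averaged 7.08 in phrenic neurons, 5.72 in LMC radial neurons and 7.05 in C3-C5 GFP-only cells. Evx1 (3.93, 3.88 and 3.78) and Tlx3 (3.71, 3.46 and 3.62) were also highest in phrenic neurons, with means below 5 in every type. The summed level of 7 progenitor markers ranged from 42.1 to 49.3 in phrenic arrays, from 41.9 to 44.3 in LMC radial arrays and from 40.7 to 41.9 in C3-C5 GFP-only arrays, and that of the 5 glial markers from 24.0 to 32.3, 25.8 to 27.4 and 24.2 to 25.8 in the same types. No interneuron or progenitor marker was called by limma in any comparison. Over all probe sets 6.61% were called between phrenic and LMC radial neurons and 1.96% between phrenic neurons and C3-C5 GFP-only cells. Between LMC radial neurons and C3-C5 GFP-only cells 3.76% were called. With 9 and 7 markers, the lack of calls is close to these shares. A part of any of these measures in the Htr1a difference was not tested beyond these values. In sorted bulk samples, fewer cells with a transcript and less of it per cell cannot be told apart.

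**Figure D4:**
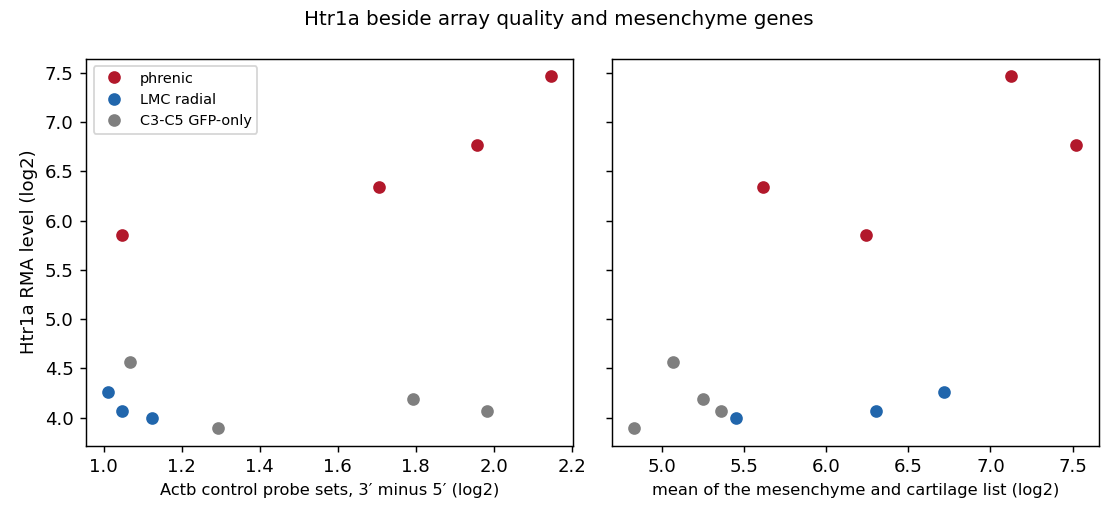
Htr1a RMA log2 level (vertical axis) in each of 11 arrays against the Actb control's difference, 3′ less 5′ (left) and the mean of the mesenchyme and cartilage genes (right), both log2, coloured by type. Phrenic arrays lie above 5 on the vertical axis and all other arrays below it. Phrenic and LMC radial arrays overlap in the mesenchyme mean, and the C3-C5 GFP-only arrays all lie below the phrenic ones in it.

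The 300 bases around the annotated start of Htr1a and Htr7 (250 before and 50 after) are shown because these were the 2 of the 8 receptors whose representing probe set reached 5 in any array, a choice made after their values were seen. Both come from RefSeq on build GRCm38.p6 and are written 5′ to 3′ on the gene's strand, with a GGGCGG match in capitals. Htr1a lies at chr13:105443443-105443742 on the plus strand and Htr7 at chr19:36057311-36057610 on the minus strand.
Htr1a: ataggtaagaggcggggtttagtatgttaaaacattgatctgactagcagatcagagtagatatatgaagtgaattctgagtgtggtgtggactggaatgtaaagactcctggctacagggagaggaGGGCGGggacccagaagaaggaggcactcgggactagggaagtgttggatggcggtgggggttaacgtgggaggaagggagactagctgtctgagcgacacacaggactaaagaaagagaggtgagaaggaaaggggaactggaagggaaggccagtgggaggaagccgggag
Htr7: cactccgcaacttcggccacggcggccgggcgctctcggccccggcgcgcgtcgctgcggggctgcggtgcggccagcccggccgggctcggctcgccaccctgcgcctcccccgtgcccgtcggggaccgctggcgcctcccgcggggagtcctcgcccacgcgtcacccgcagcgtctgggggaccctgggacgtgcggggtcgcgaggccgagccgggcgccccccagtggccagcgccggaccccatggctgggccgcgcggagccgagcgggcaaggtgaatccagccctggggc

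The windows differed in base composition, with 52.3% G and C for Htr1a and 81.0% for Htr7, beside a median of 52.7% over all 32851 promoter windows. Motifs were searched on both strands as exact letters: TAATTA, a homeodomain core held by 5.29% of all windows, TGATNNAT, a Hox and Pbx type site held by 8.85%, the GC box GGGCGG held by 35.7%, and TATAAA held by 13.6%. Htr1a held 1 GC box, which begins at base -123 from the start, and no other match. Htr7 held none of the 4 motifs and Htr5a none either, while Htr2c held 2 matches of TGATNNAT. A match describes letters in the window and not a bound site.

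Htr1b and Htr1d encode Gi/o-coupled receptors that often sit on axon terminals and limit transmitter release. Neither passed the test in any comparison. The Htr1b level averaged 4.19 ± 0.35 in phrenic neurons, 4.21 ± 0.16 in LMC radial neurons and 4.00 ± 0.21 in C3-C5 GFP-only cells (SD). Its difference between phrenic and LMC radial neurons had a 95% interval from -0.44 to 0.40. A second Htr1b probe set, 1442077_at, stood at 5.17 in phrenic replicate 3 and below 5 in every other array, and its phrenic minus LMC radial difference of 0.84 did not pass (adjusted p = 0.173). The Htr1d level averaged 3.34 ± 0.08 in phrenic neurons, 3.22 ± 0.16 in LMC radial neurons and 3.54 ± 0.30 in C3-C5 GFP-only cells (SD), and its differences lay between -0.33 and 0.12.

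Htr5a encodes another Gi/o-coupled receptor. Its level was 3.46, 3.32, 3.25 and 3.52 in phrenic neurons, 3.94, 3.86 and 4.15 in LMC radial neurons, and 3.43, 3.52, 3.25 and 3.30 in C3-C5 GFP-only cells. The LMC radial arrays did not overlap with the others, yet every array was below 5, so no fold is given. Phrenic neurons were lower than LMC radial neurons by a log2 difference of -0.60 ± 0.12 (limma, adjusted p = 0.0139), and LMC radial neurons were higher than C3-C5 GFP-only cells by 0.61 ± 0.12 (adjusted p = 0.0202). The call against phrenic neurons was lost without LMC radial replicate 3 (adjusted p = 0.0603), and the call against C3-C5 GFP-only cells without LMC radial replicates 1 or 3 or C3-C5 GFP-only replicate 3 (up to 0.0751). The other Htr5a probe set, 1443276_at, was not called, with differences of -0.08 and -0.10. The annotation ties the called probe set, 1422207_at, to the RefSeq transcript of Htr5a and 1443276_at to another sequence.

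Htr2c encodes a Gq-coupled receptor that excites motor neurons. Its level was 3.17, 3.23, 2.62 and 3.22 in phrenic neurons, 4.78, 4.80 and 3.42 in LMC radial neurons, and 3.34, 2.93, 2.87 and 3.16 in C3-C5 GFP-only cells. LMC radial replicates 1 and 2 stood well above the rest, replicate 3 only slightly, and no array reached 5. The phrenic minus LMC radial difference was -1.27 ± 0.31 (limma, adjusted p = 0.0336) and the LMC radial minus C3-C5 GFP-only difference was 1.26 ± 0.31 (adjusted p = 0.0498). The first call was lost without phrenic replicates 2 or 3, LMC radial replicates 1 or 2, or C3-C5 GFP-only replicates 2, 3 or 4 (adjusted p up to 0.130). The second was lost without phrenic replicates 1 or 2, LMC radial replicates 1 or 2, or any C3-C5 GFP-only array (up to 0.172). The other Htr2c probe set, 1450477_at, differed by -0.20 and 0.23 and was not called. The annotation ties 1450477_at to the RefSeq transcript of Htr2c and the called probe set, 1435513_at, to another sequence.

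Htr3a, the channel-forming subunit, averaged 3.37 ± 0.07 in phrenic neurons, 3.69 ± 0.29 in LMC radial neurons and 3.25 ± 0.14 in C3-C5 GFP-only cells (SD). Its LMC radial minus C3-C5 GFP-only difference of 0.44 had a 95% interval from 0.13 to 0.75 but did not pass over all probe sets (limma, adjusted p = 0.113). Htr4, a Gs-coupled receptor, averaged 3.05 ± 0.17 in phrenic neurons, 3.26 ± 0.15 in LMC radial neurons and 3.25 ± 0.13 in C3-C5 GFP-only cells (SD), and no comparison was called.

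Htr7, the other Gs-coupled receptor of the group, was higher in LMC radial neurons than in both other types. It stood at 5.45, 4.93, 4.79 and 5.54 in phrenic neurons, 6.15, 6.28 and 6.04 in LMC radial neurons, and 5.68, 5.19, 5.22 and 5.13 in C3-C5 GFP-only cells. LMC radial levels did not overlap with either of the other types, and phrenic and C3-C5 GFP-only levels overlapped. Phrenic neurons were lower than LMC radial neurons by a log2 difference of -0.98 ± 0.20 (limma, adjusted p = 0.0165), and LMC radial neurons were higher than C3-C5 GFP-only cells by 0.85 ± 0.20 (adjusted p = 0.0446). Between phrenic neurons and C3-C5 GFP-only cells the difference was -0.13, with a 95% interval from -0.54 to 0.28.

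The Htr7 calls depended on single arrays and on the settings. The call of phrenic against LMC radial was lost without LMC radial replicates 1 or 2 (limma, adjusted p = 0.0547 and 0.0689). The call of LMC radial against C3-C5 GFP-only was lost without any 1 of the LMC radial arrays or of C3-C5 GFP-only replicates 2, 3 and 4 (adjusted p up to 0.137). Within the arrays of the higher lower quartile the phrenic minus LMC radial difference was -0.66 (adjusted p = 0.159). With the array set as a term, the LMC radial minus C3-C5 GFP-only difference was 0.64 (adjusted p = 0.0996). With values below 5 raised to 5, the latter was not called either (adjusted p = 0.0999). The second Htr7 probe set, 1422235_at, showed no called difference, with values of 0.03 for phrenic minus LMC radial and -0.10 for LMC radial minus C3-C5 GFP-only. The annotation ties 1422235_at to the RefSeq transcript of Htr7 and the called probe set, 1435332_at, to another sequence.

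Calls on dim probe sets leaned towards the LMC radial arrays across the table. Of all probe sets 23414, or 52.0%, had a mean below 5 in every type, as Htr2c and Htr5a did. Of these, 3.49% were called lower in phrenic than in LMC radial neurons and 0.615% higher, and 2.67% were called higher in LMC radial neurons than in C3-C5 GFP-only cells and 0.342% lower. Dim probe sets made up 57.9% of all calls lower in phrenic than in LMC radial neurons. The LMC radial arrays also had lower quartiles between 3.32 and 3.38, above those of the other arrays, and the part of this in the Htr2c and Htr5a differences was not tested.

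The genes whose levels followed each called receptor most closely over the 11 arrays were found by Pearson's r, given as a description of arrays that share the same 3 types. Pappa (r = 0.960), Racgap1 (0.956) and Lrrc3b (0.953) were nearest to Htr1a. Pappa averaged 8.68 in phrenic neurons, 6.36 in LMC radial neurons and 6.38 in C3-C5 GFP-only cells, and Lrrc3b averaged 6.90, 4.49 and 4.83 in the same types. Nearest to Htr7 were Terb2 (0.973), Appbp2os (0.966) and Lce1i (0.965), of which Terb2 and Lce1i had means below 5 in every type. Nearest to Htr2c were Zbtb32 (0.958), Slc9b1 (0.947) and Xcl1 (0.943), and nearest to Htr5a were AU015791, Samd7 and Ccdc122 (0.972 to 0.975), all with means below 5 in every type.

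Of the other serotonin receptors measured, Htr1f, Htr2b, Htr3b, Htr5b and Htr6, 0 of 5 were called by limma in any comparison. Over all probe sets 6.61%, 1.96% and 3.76% were called in phrenic against LMC radial, phrenic against C3-C5 GFP-only and LMC radial against C3-C5 GFP-only. A count of 0 among 5 is close to these shares. In the same order of comparisons 0, 2 and 1 of these receptors had an unadjusted p under 0.05. Htr1f, Htr3b, Htr5b and Htr6 were below 5 in every array. Htr2b, a Gq-coupled receptor, was at 5.45, 5.26, 5.61 and 4.59 in phrenic neurons, 5.06, 5.90 and 5.23 in LMC radial neurons, and 5.99, 5.66, 6.25 and 6.66 in C3-C5 GFP-only cells. Phrenic arrays did not overlap with C3-C5 GFP-only arrays, and the difference was -0.91 ± 0.28 (limma, adjusted p = 0.147).

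Among 12 measured genes of serotonin synthesis, transport and breakdown, 1 was higher in phrenic than in LMC radial neurons, none was called by limma between phrenic neurons and C3-C5 GFP-only cells (4 with an unadjusted p under 0.05), and 2 were lower in LMC radial neurons than in C3-C5 GFP-only cells. Of all probe sets 3.48% were higher in the first comparison, 1.96% were called in the second and 1.88% were lower in the last. Slc18a2, the transporter that loads monoamines into vesicles, was at 7.91, 8.32, 8.18 and 7.51 in phrenic neurons, 4.24, 5.03 and 4.52 in LMC radial neurons, and 6.61, 7.40, 7.49 and 7.43 in C3-C5 GFP-only cells. The groups did not overlap. Slc18a2 was at least 7.85-fold higher in phrenic than in LMC radial neurons (log2 difference 3.39 ± 0.27, limma, adjusted p = 4.2e-05) and at least 4.67-fold lower in LMC radial neurons than in C3-C5 GFP-only cells (-2.64 ± 0.27, adjusted p = 0.000699). The phrenic minus C3-C5 GFP-only difference of 0.75 did not pass (adjusted p = 0.194).

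Ddc, the decarboxylase of the last step of serotonin synthesis, was at 3.62, 4.97, 4.97 and 4.53 in phrenic neurons, 3.35, 4.00 and 4.38 in LMC radial neurons, and 5.14, 6.07, 6.01 and 5.88 in C3-C5 GFP-only cells. It was lower in LMC radial neurons than in C3-C5 GFP-only cells (-1.87 ± 0.36, limma, adjusted p = 0.0190), a call lost without LMC radial replicates 1 or 2 or C3-C5 GFP-only replicates 2 or 3 (up to 0.0778). The phrenic minus C3-C5 GFP-only difference of -1.26 was not called (adjusted p = 0.0978) but passed with replicate number as a block (adjusted p = 0.00446). Of 6 measured markers of serotonergic neurons, 4 had a mean below 5 in phrenic neurons, 5 in LMC radial neurons and 5 in C3-C5 GFP-only cells. Slc18a2 is itself among these markers. Tph2, which starts serotonin synthesis in neurons, averaged 3.82 in phrenic neurons and 2.64 in LMC radial neurons, and stood between 3.30 and 4.02 in C3-C5 GFP-only cells. Slc6a4, which takes serotonin up, averaged 3.54, 3.35 and 3.45 in the same types.

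**Figure D5:**
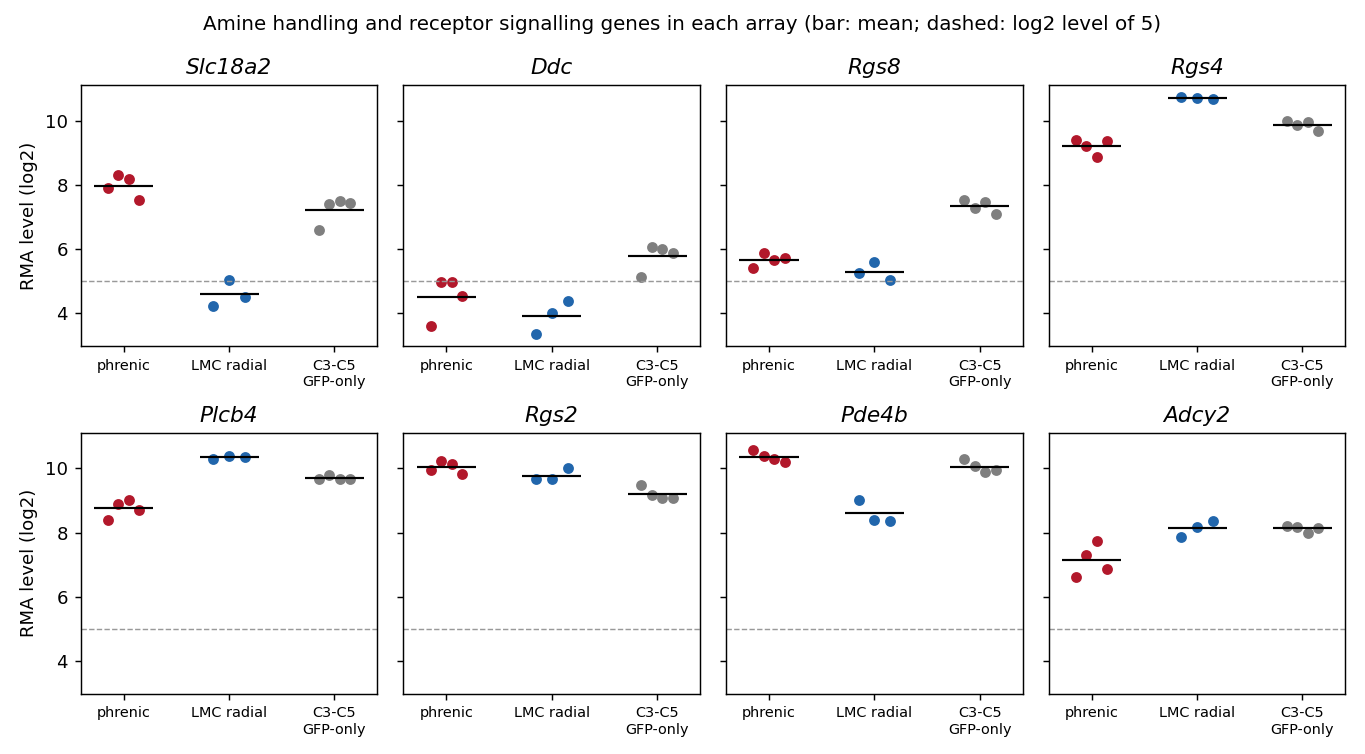
RMA log2 levels (vertical axis) of 8 genes of amine handling and receptor signalling in each array, with phrenic, LMC radial and C3-C5 GFP-only arrays from left to right, a bar at each mean and a dashed line at 5. Slc18a2 is near or below 5 in the LMC radial arrays, Rgs8 is highest in the C3-C5 GFP-only arrays, and Rgs4 and Plcb4 are lowest in the phrenic arrays.

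Downstream of Gi/o, 5 of 13 genes were called between phrenic and LMC radial neurons (2 higher, 3 lower), 4 between phrenic neurons and C3-C5 GFP-only cells (1 higher, 3 lower) and 2 between LMC radial neurons and C3-C5 GFP-only cells (1 higher, 1 lower). Over all probe sets 6.61%, 1.96% and 3.76% were called in these comparisons. The named members are regulators that speed the shut-off of G proteins. Rgs4 was at 9.41, 9.21, 8.86 and 9.35 in phrenic neurons, 10.74, 10.70 and 10.66 in LMC radial neurons, and 9.98, 9.85, 9.95 and 9.68 in C3-C5 GFP-only cells, without overlap. It was lower in phrenic than in LMC radial neurons (-1.49 ± 0.14, limma, adjusted p = 0.000139) and higher in LMC radial neurons than in C3-C5 GFP-only cells (0.84 ± 0.14, adjusted p = 0.00996). Its lower level in phrenic neurons than in C3-C5 GFP-only cells (-0.66 ± 0.13, adjusted p = 0.0278) was lost with replicate number as a block (0.0541) and without phrenic replicate 2 or C3-C5 GFP-only replicates 1, 2 or 3 (up to 0.0948).

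Rgs8 averaged 5.68 ± 0.19 in phrenic neurons, 5.30 ± 0.29 in LMC radial neurons and 7.34 ± 0.19 in C3-C5 GFP-only cells (SD). It was lower in phrenic neurons than in C3-C5 GFP-only cells (-1.66 ± 0.15, limma, adjusted p = 0.000293) and lower in LMC radial neurons than in C3-C5 GFP-only cells (-2.04 ± 0.17, adjusted p = 0.000167). Rgs7 was lower in phrenic neurons than in C3-C5 GFP-only cells (-0.60 ± 0.10, adjusted p = 0.0141, and 0.0558 without C3-C5 GFP-only replicate 3). Its difference of -0.45 from LMC radial neurons (adjusted p = 0.0373) was lost with any of 7 of the 11 arrays left out (up to 0.125).

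Of 20 measured genes of the Gs arm, 3 were called between phrenic and LMC radial neurons (2 higher, 1 lower), 1 was lower in phrenic neurons than in C3-C5 GFP-only cells and 1 was lower in LMC radial neurons than in C3-C5 GFP-only cells. The shares called over all probe sets were 6.61%, 1.96% and 3.76%, so 1 of 20 is close to them. Pde4b, which breaks down cyclic AMP, was higher in phrenic than in LMC radial neurons (1.76 ± 0.18, limma, adjusted p = 0.00021) and lower in LMC radial neurons than in C3-C5 GFP-only cells (-1.45 ± 0.18, adjusted p = 0.00198), with every array above 8. Adcy8, an adenylyl cyclase stimulated by calcium, averaged 5.54 in phrenic neurons and 3.92 in LMC radial neurons (1.62 ± 0.31, adjusted p = 0.0113, and 0.0543 without LMC radial replicate 2). With values below 5 raised to 5 the difference was 0.54 and was not called (adjusted p = 0.363). Adcy2, another adenylyl cyclase, averaged 7.14 in phrenic neurons, 8.14 in LMC radial neurons and 8.14 in C3-C5 GFP-only cells. Its call against LMC radial neurons (95% interval from -1.52 to -0.48, adjusted p = 0.0291) was lost without LMC radial replicates 2 or 3 (0.0938 and 0.113), and that against C3-C5 GFP-only cells (-1.01 ± 0.22, adjusted p = 0.0421) with the replicate block (0.0513) or without any array but phrenic replicate 3 (up to 0.121).

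In the Gq arm 2 of 14 genes were called between phrenic and LMC radial neurons (1 higher, 1 lower), 6 between phrenic neurons and C3-C5 GFP-only cells (3 higher, 3 lower) and 2 between LMC radial neurons and C3-C5 GFP-only cells (1 higher, 1 lower), beside 6.61%, 1.96% and 3.76% of all probe sets. Plcb4, a phospholipase C activated by Gq, was at 8.39, 8.90, 9.03 and 8.70 in phrenic neurons, 10.30, 10.39 and 10.36 in LMC radial neurons, and 9.66, 9.79, 9.68 and 9.66 in C3-C5 GFP-only cells, without overlap. It was lower in phrenic than in LMC radial neurons (-1.59 ± 0.14, limma, adjusted p = 9.4e-05) and than in C3-C5 GFP-only cells (-0.94 ± 0.13, adjusted p = 0.0041). Its LMC radial minus C3-C5 GFP-only difference of 0.65 (adjusted p = 0.0315) was lost without any single LMC radial or C3-C5 GFP-only array (up to 0.100). Rgs2, a regulator that acts on Gq, averaged 10.04 ± 0.18 in phrenic neurons and 9.20 ± 0.20 in C3-C5 GFP-only cells (SD) and was higher in phrenic neurons (0.84 ± 0.14, adjusted p = 0.00998). Gna14, a G protein subunit of the Gq family, was below 5 in every array and called lower in phrenic and in LMC radial neurons than in C3-C5 GFP-only cells (-1.05 and -0.84, adjusted p = 0.0159 and 0.0463). The Gna14 call of phrenic neurons was lost without C3-C5 GFP-only replicates 1, 2 or 3 (up to 0.0598), and that of LMC radial neurons with any of 9 of the 11 arrays left out (up to 0.139) and after centring (0.0597). Both were lost with values below 5 raised to 5 and in fits of the 2 types compared.

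Among 15 measured receptor partners, 2 were higher in phrenic than in LMC radial neurons, none was called by limma between phrenic neurons and C3-C5 GFP-only cells (3 with an unadjusted p under 0.05), and 1 was lower in LMC radial neurons than in C3-C5 GFP-only cells. Of all probe sets 3.48% were higher in the first comparison, 1.96% were called in the second and 1.88% were lower in the last. Grk3, a kinase that desensitizes receptors, averaged 7.53 in phrenic neurons, 6.73 in LMC radial neurons and 7.35 in C3-C5 GFP-only cells. It was higher in phrenic than in LMC radial neurons (0.79 ± 0.12, limma, adjusted p = 0.00371), and its LMC radial minus C3-C5 GFP-only difference of -0.62 (adjusted p = 0.0230) was lost without LMC radial replicates 1 or 2 or C3-C5 GFP-only replicates 2 or 3 (up to 0.0819). Cc2d1a, known from rat and human cells as a repressor of the Htr1a gene, averaged 6.60 in phrenic neurons, 5.62 in LMC radial neurons and 6.14 in C3-C5 GFP-only cells. It was higher in phrenic than in LMC radial neurons (0.98 ± 0.20, adjusted p = 0.0164), a call lost without LMC radial replicates 1 or 2 (0.0590 and 0.0671).

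Of 27 measured receptors for other neuromodulators, 1 was lower in phrenic than in LMC radial neurons, 1 was higher and 1 lower in phrenic neurons than in C3-C5 GFP-only cells, and none was called between LMC radial neurons and C3-C5 GFP-only cells by limma (8 with an unadjusted p under 0.05). With 3.14% of all probe sets lower in the first comparison, and 0.973% higher and 0.986% lower in the second, counts of 1 among 27 are close to the shares of the whole table. Tacr3, the neurokinin B receptor, averaged 4.97 in phrenic neurons and 6.20 in C3-C5 GFP-only cells (-1.23 ± 0.25, limma, adjusted p = 0.0343), and the call was lost with the replicate block (0.0873) and with any of 7 of the 11 arrays left out (up to 0.109). Npy1r, a neuropeptide Y receptor, and Oprk1, the kappa opioid receptor, had means below 5 in every type. Npy1r was higher in phrenic neurons than in C3-C5 GFP-only cells (0.71, adjusted p = 0.0283, and 0.0665 with the block), and Oprk1 was lower in phrenic than in LMC radial neurons (-0.74, adjusted p = 0.0359). These calls were lost with 5 and 6 of the 11 arrays left out in turn.

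Medians of the lists are given beside those of all probe sets. The median difference between phrenic and LMC radial neurons was -0.17 over the other serotonin receptors, 0.22 over serotonin handling, -0.02 over the Gi/o arm, 0.18 over the Gs arm, 0.05 over the Gq arm, 0.17 over the receptor partners and -0.17 over the other neuromodulator receptors, beside -0.01 over all probe sets. Between phrenic neurons and C3-C5 GFP-only cells the 7 medians lay between -0.02 and 0.22, beside 0.00 over all probe sets. Between LMC radial neurons and C3-C5 GFP-only cells they lay between -0.10 and 0.20, beside 0.00 over all probe sets. No test was made over any of these lists, which were drawn up with earlier results known.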

How the data were processed

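RNA of sorted motor neurons was measured on 11 Affymetrix arrays (4 phrenic, 3 LMC radial, 4 C3-C5 GFP-only). The deposited table holds log2 values that the authors made with RMA, per the submitters' processing notes. The version is not given in the sources used here. Of 45101 probe sets 64 controls were left out of the tests, and 45037 were tested without a further filter. A single gene symbol was given for 34945, several symbols for 932, and no symbol for 9160.

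Models with 1 mean for each cell type and 3 pairwise contrasts were fitted with lmFit and eBayes (limma 3.58.1, R 4.3.3), which gave 8 residual degrees of freedom and a prior worth 2.92. The series' own contrast of a type with the rest is the mean of 2 of these and was not tested separately. Two-sided p-values were adjusted by Benjamini and Hochberg over all probe sets in each comparison, and an adjusted p under 0.05 is a call. Folds against a mean below 5 were computed with values below 5 raised to 5. The model was tested on simulated data. The number of arrays limits the precision.

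The receptors, gene lists and tests were chosen with earlier results of these data known. Genes named were all receptors, up to 3 of each pathway list with the smallest p among those called, and the 3 nearest by correlation to each called receptor. Same-numbered phrenic and C3-C5 GFP-only arrays deviated together (r = 0.125 to 0.224). So did phrenic replicates 1, 4, 2 and 3 with C3-C5 GFP-only replicates 4, 1, 3 and 2 (0.186, 0.179, 0.269 and 0.280), which have similar lower quartiles. Arrays of these types with unlike lower quartiles had negative r (-0.125 to -0.254). The values thus do not show that the numbers are pairs. The main fits used no replicate block, which was an alternative setting only. Same-numbered arrays in comparisons with LMC radial neurons had r from -0.083 to 0.050. Alternatives were other scalings, a dim filter, a floor, other variance settings, a replicate block, fits of 2 types, array sets, left-out arrays and other probe sets.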

Additional observations from a re-analysis of the deposited data

Results flagged for a closer look

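Values that stood far from the 3 other arrays of their group, with a gap that took most of the group's range by Dixon's test, were found in 7 of 58 groups of 4 arrays. Chance gives about 1 in 20 groups, and the groups share arrays. Htr2c stood at 2.62 in phrenic replicate 3, below 3.17 to 3.23 in the other phrenic arrays. Htr7 stood at 5.68 in C3-C5 GFP-only replicate 1, above 5.13 to 5.22 in the others. Htr3b stood at 2.80 in phrenic replicate 4, above 2.65 to 2.68. Slc18a2 stood at 6.61 in C3-C5 GFP-only replicate 1, below 7.40 to 7.49. Plcb4 stood at 9.79 in C3-C5 GFP-only replicate 2, above 9.66 to 9.68. Gna14 stood at 3.88 in C3-C5 GFP-only replicate 4, below 4.69 to 4.84, and Oprk1 stood at 2.69 in C3-C5 GFP-only replicate 2, below 3.26 to 3.33. The cause was not tested.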

How the results depend on the processing

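The number of receptor genes called moved with the settings, and the cause was not tested except where fewer arrays or probe sets entered. For phrenic against LMC radial, 4 became 2 with dim probe sets left out or values below 5 raised to 5, and 1 in a fit of these types only or of the arrays with the higher lower quartile. For phrenic against C3-C5 GFP-only, 1 became 0 within either array set. For LMC radial against C3-C5 GFP-only, 3 became 1 with the dim filter and 0 with the floor, with array set as a term or in the higher set. With each array left out, the counts ranged from 2 to 4, from 1 to 1 and from 0 to 3. They were 2 without LMC radial replicates 1 or 2 in the first comparison. In the last they were 0 without LMC radial replicate 1 or C3-C5 GFP-only replicate 3, and 1 without LMC radial replicates 2 or 3 or C3-C5 GFP-only replicates 2 or 4.

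Calls over all probe sets in phrenic against LMC radial (2979) were 1046 with the floor, 1410 in the fit of these types and 778 in the higher set. In phrenic against C3-C5 GFP-only (882) they were 516 with the floor, 127 in the higher set and 159 in the lower set. In LMC radial against C3-C5 GFP-only (1694) they were 971 with the dim filter, 382 with the floor, 6685 with array weights, 840 with the array set term, 3676 in the fit of these types and 98 in the higher set. With 1 array left out they ranged from 1678 to 4266, from 458 to 1240 and from 606 to 2654. The share of higher calls for phrenic against LMC radial was 52.6%, but 42.5% after quantile normalization and 39.1% after centring. For LMC radial against C3-C5 GFP-only 847 were higher and 847 lower, and the share of higher calls was 58.6% and 64.1% under these settings.

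Other probe sets reversed 5 differences: Htr1a at -0.71 and -0.22, Htr7 at 0.029 and -0.10, and Htr5a at -0.10. With replicate number as a block, receptor calls were 4, 1 and 3 and all calls 3537, 862 and 2401. Beyond the genes named beside their results, the block changed no call between phrenic neurons and C3-C5 GFP-only cells. Of 905 other settings of single genes, 790 kept their call or its lack, 99 lost it and 11 gained it. Over these and the 957 settings with an array left out, 81 values changed sign where neither setting gave a call. The array sets were chosen after seeing the data. Signal near background limits Htr1b, Htr1d, Htr2c, Htr3a, Htr4 and Htr5a.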
